A study of Mus musculus with 6 samples.

Results

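Genes of the bone morphogenetic protein (BMP) and transforming growth factor beta (TGF-beta) pathway were followed in freshly sorted cardiac side population (SP) cells, the heart cells that extrude the dye Hoechst. Members were all protein-coding genes whose symbols name BMPs, growth and differentiation factors (GDFs), TGF-betas, inhibins and activins, their receptors, SMADs, latent TGF-beta binding proteins, Id proteins or secreted BMP antagonists such as *Nog*, plus *Inha* and *Eng*. This gave 61 of the 21764 protein-coding genes among 50600 deposited genes. RNA came from 3 libraries of wild-type (wt) C57BL/6NRj mice and 3 libraries labelled flt3L-/-, from C57BL/6Flt3Ltml/mx mice on a C57BL/6N background, a strain made to lack Flt3 ligand. The mice were untreated young adults, the allele is carried in the germline, and sorted cells of 4 mice were pooled for each library, so that single animals cannot be seen. One wt sort and one flt3L-/- sort shared each of 3 sorting dates. These pairs are numbered 1, 2 and 3 by date, with pairs 1 and 2 in 2016 and pair 3 in 2017.

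Levels are CPM, counts set to a common total of 1000000 per library and scaled with the trimmed mean of M-values (TMM), and levels of different genes are compared only as CPM per kb of exon. Total counts were 24370913 to 31145519 per library. The limit that a count of 0 allows, 3 counts, is 0.109 to 0.127 CPM and covers counting error only. *Flt3l*, the targeted gene, had 8.67, 10.8 and 12.1 CPM in wt libraries of pairs 1, 2 and 3 and 13.6, 12.4 and 14.4 CPM in those labelled flt3L-/-, so its reads were not fewer under that label, and 22.1% of its exon bases are shared with Gm45713. The dye pump gene *Abcg2* had 147 to 204 CPM in wt libraries and 171 to 274 CPM in those labelled flt3L-/-. It is 1 of 5 listed side population genes, with *Abcb1a*, *Abcb1b*, *Ly6a* and *Cd34*. Of these 5, 2 had a lower mean in the libraries labelled flt3L-/-, and their median log2 fold change was 0.08. All 10 fibroblast and all 10 endothelial marker genes were detected in the sorted cells. Summed over its list, the fibroblast level was 22321 to 44505 CPM in wt libraries and 10257 to 33675 CPM in those labelled flt3L-/-, and the endothelial level was 8892 to 11851 and 9602 to 14220 CPM. In bulk RNA, fewer cells of a type and less RNA per cell cannot be told apart.

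BMPs, GDFs, activins and TGF-betas are secreted dimers that bring together type I and type II receptors, which are serine and threonine kinases. The type II receptor activates the type I receptor, which phosphorylates receptor SMADs. These join SMAD4, enter the nucleus and regulate genes such as those of the Id proteins. In endothelium, the type I receptor ALK1 (*Acvrl1*) and the co-receptor endoglin (*Eng*) carry signals of circulating BMPs, whereas in fibroblasts TGF-beta is stored in the matrix by latent TGF-beta binding proteins and is known for driving matrix production.

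Of the 61 members, 47 had more than 1 CPM in at least 2 libraries and were tested. The other 14 stayed at or below 0.855 CPM in every library, and 1 of them, *Grem1*, had 0 counts in each of the 6 libraries, which allows a level of up to 0.109 to 0.127 CPM. No member was called, as 0 of 47 had an adjusted p under 0.05 in edgeR's quasi-likelihood test against 0.0% of all 13475 genes tested. Adjusted p-values of the members lay between 0.973 and 0.997, and DESeq2 also called 0 members, against 0.156% of all genes. At an unadjusted p under 0.05, 6 members were lower and 0 were higher in the libraries labelled flt3L-/-, or 12.8% of the members tested. Over all genes tested, 2.49% were lower and 1.11% higher by that rule, or 3.59% in either direction. The 6 members were *Ltbp1*, *Ltbp2*, *Ltbp3*, *Bmpr1a*, *Tgfbr3* and *Tgfb2*, and DESeq2 placed 7 members there, these 6 and *Gdf10*, or 14.9% against 4.76% of all genes. In edgeR the number was 2 without pair 1, 10 without pair 2, 3 without pair 3, and 0 in a fit without the sorting date, and the share of all genes that were lower by this rule was 1.97%, 5.70%, 1.06% and 1.25% in the same fits. The study listed *Bmpr1a* and *Ltbp3* as lower, at an adjusted p under 0.05 in its own edgeR quasi-likelihood test of these libraries. The log2 fold changes here, -0.62 for *Ltbp3* and -0.82 for *Bmpr1a*, were as the study lists them in direction and size. Their p-values were larger here, so the fit did not reproduce those calls, and the cause was not tested. As genes selected on these libraries, both are not independent evidence of a direction.

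The direction over pairs gave a wider view of the same genes. Lower in each of the 3 pairs were 11 members, 23.4% of those tested, against 11.5% of all genes. Higher in each of the 3 pairs were 6 members (*Acvrl1*, *Gdf15*, *Id1*, *Id3*, *Smad4* and *Smad9*), or 12.8% against 14.2% of all genes, which is near the background. The median log2 fold change of the 47 members was -0.07, beside 0.00 for all genes tested, with 29 members below 0 and 18 above it.

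**Figure D1:**
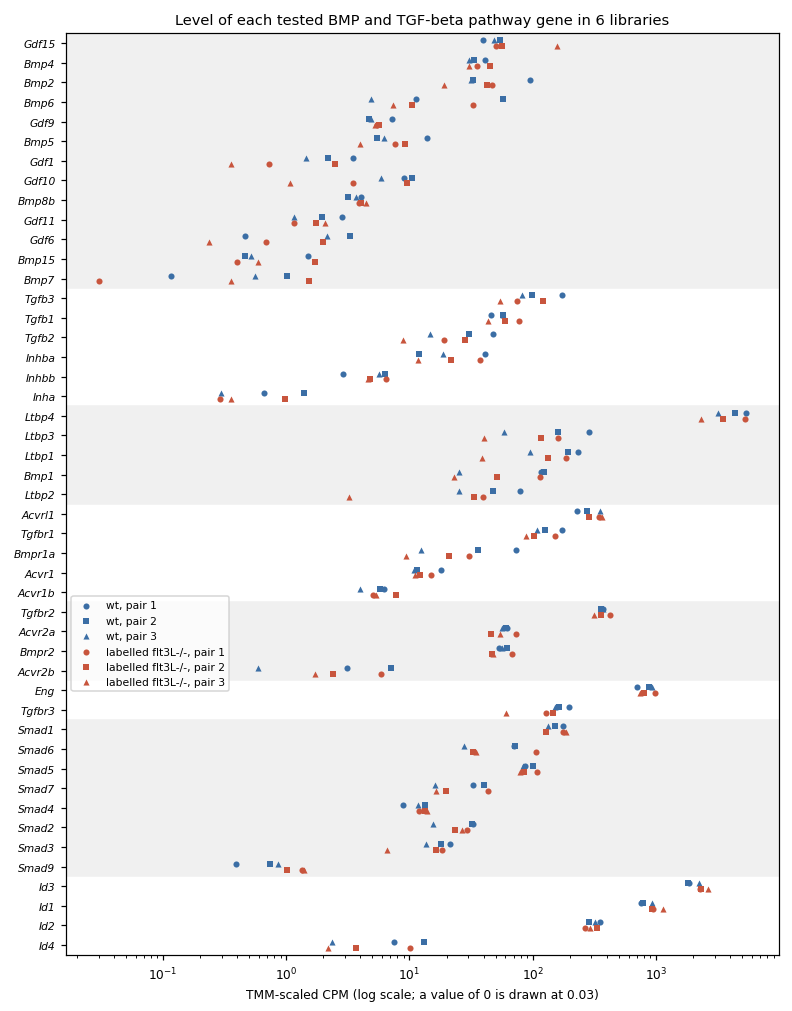
TMM-scaled CPM (log axis) of each of the 47 tested members in the 6 libraries, with colour for the group, symbol for the pair and shaded bands for the roles (from the top, BMP and GDF ligands, TGF-beta and activin ligands, latent TGF-beta binding proteins with Bmp1, type I receptors, type II receptors, co-receptors, SMADs and Id proteins). Ltbp4 lies between 2318 and 5420.5 CPM and Id3 between 1823 and 2651 CPM, values that are not per kb, and the spread between libraries is wide for Ltbp2, Bmp6 and Bmpr1a and narrow for Tgfbr2 and Id3.

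**Figure D2:**
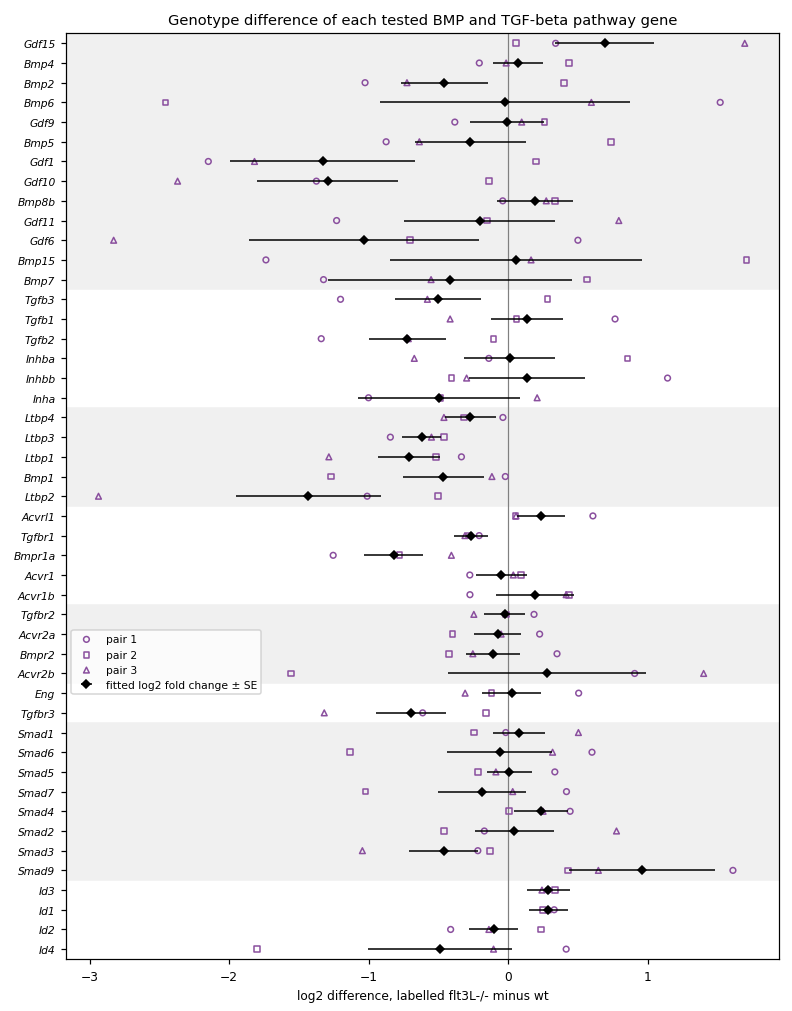
Log2 difference between the library labelled flt3L-/- and the wt library for the same 47 members, with the fitted log2 fold change and its standard error as filled diamonds and the 3 pairs as open symbols. All 5 genes of the latent TGF-beta binding protein band lie below 0 in each pair, whereas Id1 and Id3 lie above 0 in each pair with little spread.

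The latent TGF-beta binding proteins were the one role in which every tested member was lower in each pair. These matrix proteins hold latent TGF-beta outside the cell, and *Bmp1*, grouped with them, encodes a metalloproteinase that processes procollagen and is not a BMP ligand. All 5 genes were tested, and their median log2 fold change was -0.62. *Ltbp4* was by far the most abundant with 622 CPM per kb, beside 15.1 for *Ltbp3*, 13.7 for *Ltbp1*, 8.51 for *Bmp1* and 4.63 for *Ltbp2*. *Ltbp1*, *Ltbp2* and *Bmp1* are described although the rule for named genes does not include them, because their values placed them beside *Ltbp3*.

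*Ltbp3* (ENSMUSG00000024940, chr19:5740904-5758532 on the plus strand of GRCm38) had 289, 159 and 58.8 CPM in wt libraries of pairs 1, 2 and 3 and 161, 116 and 40.2 CPM in those labelled flt3L-/-. The groups overlap, because the wt library of pair 3 was below the libraries labelled flt3L-/- of pairs 1 and 2, yet within each date the wt library was the higher one. Its log2 fold change was -0.62 with a standard error of 0.14 and an unadjusted p of 0.00767 in edgeR's quasi-likelihood test, and it was -0.50, -0.72 and -0.65 without pairs 1, 2 and 3.

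*Ltbp1* (ENSMUSG00000001870, chromosome 17) had 233, 192 and 95.4 CPM in wt libraries and 185, 134 and 39.1 CPM in those labelled flt3L-/-, in the order of the pairs. It followed the same order of dates in both groups, and the log2 fold change was -0.71 ± 0.22 (SE), or -0.43 with an unadjusted p of 0.0887 without pair 3. *Ltbp2* (ENSMUSG00000002020, chromosome 12), which encodes the family member that does not bind latent TGF-beta, had 79.0, 47.3 and 25.1 CPM in wt libraries and 39.2, 33.4 and 3.21 CPM in those labelled flt3L-/-. The log2 fold change of -1.43 ± 0.52 (SE) was -0.76 without pair 3, the pair with the value of 3.21 CPM, and the gene shares 9.34% of its exon bases with D030025P21Rik on the other strand. *Ltbp4* had 5420.5, 4389.7 and 3189.8 CPM in wt libraries and 5281, 3528 and 2318 CPM in those labelled flt3L-/-. The log2 fold change was -0.27 ± 0.18 (SE), of which pair 1 contributed a difference of only -0.04. *Bmp1* differed by -0.02, -1.27 and -0.12 on the log2 scale in the pairs, so that pair 2 carried nearly all of its fitted value of -0.47, which was -0.09 without that pair.

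The sequences just upstream of the RNA start are shown for genes of this pattern, *Ltbp3*, *Ltbp1* and *Tgfbr1*, and for *Eng*, an abundant member that was not lower in each pair, to set the letters that SMADs are known to bind beside the values. Each is the 250 bases before the RefSeq start in GRCm38.p6, on the gene's strand, and touches no annotated exon. Capitals mark GGCGCC, the core of BMP response elements, and CAGAC (or GTCTG, the same site on the other strand), a SMAD box. GTCTAGAC, the palindromic site, was searched too.

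Ltbp3, chr19:5740650-5740899, plus strand: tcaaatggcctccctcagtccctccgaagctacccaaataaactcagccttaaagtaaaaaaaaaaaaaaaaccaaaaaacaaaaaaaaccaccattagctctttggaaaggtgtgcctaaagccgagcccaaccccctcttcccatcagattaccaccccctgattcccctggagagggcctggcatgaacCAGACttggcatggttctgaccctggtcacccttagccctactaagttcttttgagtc
Ltbp1, chr17:75005279-75005528, plus strand: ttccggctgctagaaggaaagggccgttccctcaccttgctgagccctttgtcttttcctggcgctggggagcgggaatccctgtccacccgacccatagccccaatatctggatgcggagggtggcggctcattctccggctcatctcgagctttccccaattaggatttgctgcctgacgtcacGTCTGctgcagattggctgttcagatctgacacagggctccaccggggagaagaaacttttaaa
Tgfbr1, chr4:47352972-47353221, plus strand: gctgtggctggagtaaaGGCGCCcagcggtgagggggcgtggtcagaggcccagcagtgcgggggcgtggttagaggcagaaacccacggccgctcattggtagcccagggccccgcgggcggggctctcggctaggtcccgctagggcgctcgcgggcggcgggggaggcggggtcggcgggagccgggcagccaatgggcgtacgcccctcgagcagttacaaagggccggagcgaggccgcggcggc
Eng, chr2:32646345-32646594, plus strand: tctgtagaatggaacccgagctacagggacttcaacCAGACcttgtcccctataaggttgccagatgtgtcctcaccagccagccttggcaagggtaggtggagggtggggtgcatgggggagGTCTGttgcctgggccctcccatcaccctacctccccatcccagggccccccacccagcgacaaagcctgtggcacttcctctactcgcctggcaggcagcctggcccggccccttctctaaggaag

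The *Ltbp3* and *Ltbp1* windows hold 1 SMAD box each, that of *Eng* holds 2 and that of *Tgfbr1* holds 1 GGCGCC. Promoter sequences were matched by symbol for 44 of the 61 members. GGCGCC occurred in 10 of the 44 (22.7%) and in 10.8% of 27025 genes with a window of this length, and the SMAD box in 23 of the 44 (52.3%) and in 45.8% of all genes. GTCTAGAC was in 0 of the 44 members and in 0.200% of all genes. Where a gene had more than 1 window, a match in any of them counted. The 27025 genes were not limited to protein-coding genes, as the members were, and were not matched to them in base content. A match is a string of letters in these windows and not a measured binding site.

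TGF-beta ligands were measured at moderate levels. *Tgfb3* had 29.7 CPM per kb, *Tgfb1* 11.3 and *Tgfb2* 4.30. *Tgfb2* had 48.0, 30.6 and 14.7 CPM in wt libraries of pairs 1, 2 and 3 and 18.9, 28.5 and 8.90 CPM in those labelled flt3L-/-. It was lower in each pair, but by only 0.10 on the log2 scale in pair 2, and its log2 fold change was -0.72 ± 0.27 (SE) with an unadjusted p of 0.0484. Without pair 1 the value was -0.41, and the unadjusted p was not under 0.05 there or with RLE or upper quartile factors. The most abundant of them, *Tgfb3*, had 172, 99.6 and 81.3 CPM in wt libraries and 74.8, 121 and 54.4 CPM in those labelled flt3L-/-, so pair 2 went the opposite way from pairs 1 and 3. *Tgfb1*, the isoform that leukocytes and platelets make in abundance, had 45.7, 57.1 and 58.0 CPM in wt libraries and 77.8, 59.5 and 43.4 CPM in those labelled flt3L-/-. Its log2 fold change of 0.14 was smaller than its standard error of 0.26 and became -0.18 without pair 1. Of the activin and inhibin subunits, *Inhba*, *Inhbb* and *Inha* were tested with log2 fold changes of 0.01, 0.14 and -0.50, and *Inhbc* and *Inhbe* stayed under the filter.

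BMP and GDF ligands had 13 of 20 members tested, none with an unadjusted p under 0.05. *Gdf15*, a stress-induced member of the family, was the most abundant with 36.5 CPM per kb. It had 39.7, 54.5 and 48.3 CPM in wt libraries and 50.2, 56.7 and 157 CPM in those labelled flt3L-/-. Only the library labelled flt3L-/- of pair 3 stood clear of the others, and the log2 fold change of 0.69 ± 0.36 (SE) was 0.20 without that pair. *Bmp4*, a ligand of BMP receptors in vessels and mesenchyme, had 15.9 CPM per kb, with 40.7, 33.2 and 30.5 CPM in wt libraries and 35.3, 44.9 and 30.2 CPM in those labelled flt3L-/-. The groups overlapped fully, with a log2 fold change of 0.07 ± 0.18 (SE), and of -0.13 without pair 2. *Gdf10* (BMP3B), with the smallest p of the role, had 9.10, 10.5 and 5.85 CPM in wt libraries and 3.46, 9.55 and 1.07 CPM in those labelled flt3L-/-. It was lower in each pair, with a log2 fold change of -1.29 ± 0.51 (SE), an unadjusted p of 0.0525 and a value of -0.76 without pair 3.

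*Bmp6*, a ligand that endothelial cells secrete and that controls iron balance, varied widely between libraries and is described for that reason, after its values were seen. It had 11.3, 57.4 and 4.84 CPM in wt libraries and 32.6, 10.4 and 7.36 CPM in those labelled flt3L-/-. The wt library of pair 2 and the library labelled flt3L-/- of pair 1 were the high ones, so the pairs differed by 1.52, -2.46 and 0.60 and the fitted value was -0.02 ± 0.90 (SE). This value was -0.96, 1.05 and -0.47 without pairs 1, 2 and 3. *Bmp2*, also chosen after its values were seen, had 95.7 CPM in wt pair 1 and between 19.1 and 46.9 CPM in the other 5 libraries. *Gdf1* shares all of its exon bases with *Cers1*, and its reads cannot be assigned to it. *Gdf2* (BMP9) and *Bmp10*, the circulating ligands of ALK1, reached at most 0.594 and 0.212 CPM.

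The secreted BMP antagonist *Nog* (noggin) was near the limit of detection. It had 0.855, 0.272 and 0.00 CPM in wt libraries and 0.146, 0.297 and 0.158 CPM in those labelled flt3L-/-, and it was not tested.

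Type I receptors spanned a wide range of levels. *Acvrl1*, which encodes the endothelial receptor ALK1, led in wt with 66.9 CPM per kb, between 53.4 and 82.5 in the 3 libraries. *Tgfbr1* (ALK5), the type I receptor of TGF-beta, followed with 16.6 to 26.6 CPM per kb, a range clear of that of *Acvrl1*. *Bmpr1a* (ALK3) with 1.97 to 11.6, *Acvr1* (ALK2) with 2.24 to 3.74 and *Acvr1b* (ALK4) with 0.902 to 1.399 CPM per kb came next, and the ranges of *Bmpr1a* and *Acvr1* overlapped. *Bmpr1b* and *Acvr1c* were not tested and had at most 0.621 and 0.158 CPM.

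*Bmpr1a* (ENSMUSG00000021796, chr14:34410734-34503341, minus strand, with 4.57% of its exon bases shared with the antisense gene Gm17110) had 73.4, 36.0 and 12.5 CPM in wt libraries of pairs 1, 2 and 3 and 30.7, 21.0 and 9.42 CPM in those labelled flt3L-/-. The wt level alone differed by 5.86 times between dates, more than the groups did, and the groups overlapped, while the wt library was the higher one on each date. Its log2 fold change was -0.82 ± 0.21 (SE) with an unadjusted p of 0.0124 in edgeR's quasi-likelihood test, and it was -0.60, -0.86 and -1.02 without pairs 1, 2 and 3. *Tgfbr1* was also lower in each pair, by 0.21, 0.28 and 0.31 on the log2 scale, and its log2 fold change of -0.27 ± 0.12 (SE) had an unadjusted p of 0.0773. *Acvrl1* had 228, 277 and 352 CPM in wt libraries and 347, 287 and 366 CPM in those labelled flt3L-/-. It was higher in each pair, almost wholly through pair 1, with a log2 fold change of 0.24 ± 0.17 (SE) that was 0.05 without pair 1.

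None of the 4 type II receptors had an unadjusted p under 0.05. *Tgfbr2*, the type II receptor of TGF-beta, had 371, 359 and 374 CPM in wt libraries and 422, 355 and 316 CPM in those labelled flt3L-/-. Its wt libraries differed by 1.04 times, and the log2 fold change was -0.03 ± 0.15 (SE). *Acvr2a*, a receptor of activins and some BMPs, and *Bmpr2*, the BMP receptor that is mutated in hereditary pulmonary hypertension, had log2 fold changes of -0.07 ± 0.17 and -0.11 ± 0.20 (SE). The rare *Acvr2b*, another activin receptor, differed by 0.91, -1.56 and 1.402 in the pairs, and its log2 fold change of 0.28 ± 0.71 (SE) was 1.17 without pair 2. Per kb, *Tgfbr2* was the most abundant in wt with 43.9 to 45.7 CPM, above *Acvr2a* with 9.97 to 10.95, *Bmpr2* with 2.94 to 3.47 and *Acvr2b* with 0.152 to 1.82.

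Both co-receptors were tested. Endoglin, encoded by *Eng* (ENSMUSG00000026814, chromosome 2), binds BMP9 and TGF-beta on endothelial cells, and its gene had 696, 872 and 927 CPM in wt libraries and 987, 803 and 749 CPM in those labelled flt3L-/-. The pairs differed by 0.51, -0.12 and -0.31 on the log2 scale, which left a log2 fold change of 0.03 ± 0.21 (SE) that was -0.01 when scaled by library size only, a scaling under which the median of all genes moved to -0.04. Betaglycan, encoded by *Tgfbr3* (ENSMUSG00000029287, chromosome 5), presents TGF-beta2 and inhibin to the receptors. *Tgfbr3* had 196, 165 and 151 CPM in wt libraries and 128, 147 and 60.3 CPM in those labelled flt3L-/-. All 3 wt values lay above all 3 others, which was true of 1 of the 47 members and of 2.92% of all genes, and its log2 fold change was -0.70 ± 0.25 (SE) with an unadjusted p of 0.0410, or -0.39 without pair 3.

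**Figure D3:**
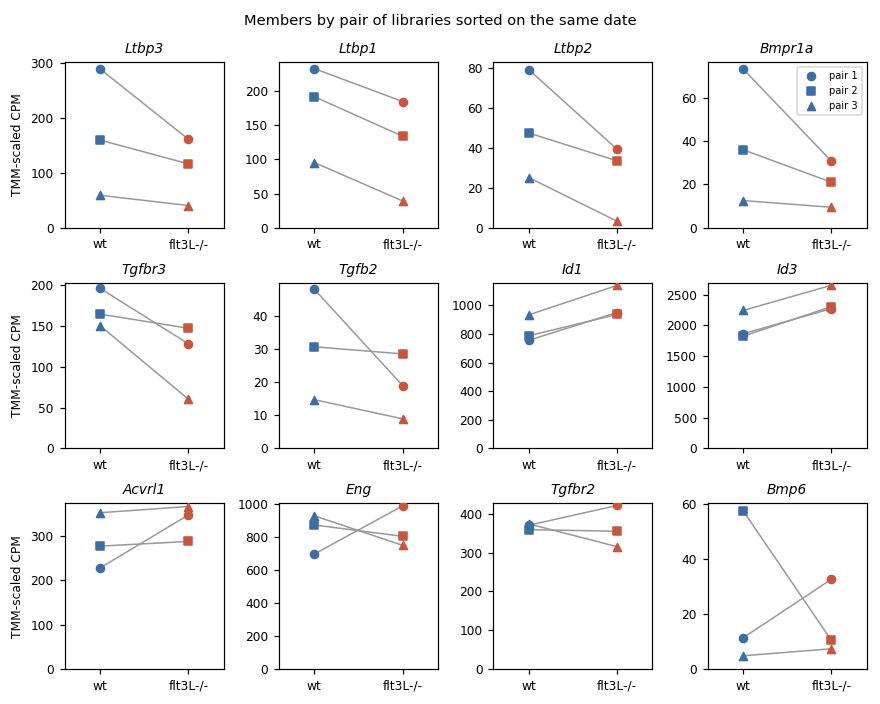
TMM-scaled CPM of 12 members, each panel from 0, with a grey line from the wt library to that labelled flt3L-/- from one sorting date. For Ltbp3, Ltbp1, Ltbp2, Bmpr1a, Tgfbr3 and Tgfb2 all 3 lines go down and start from different heights, for Id1 and Id3 all 3 go up by a similar step, and for Eng, Tgfbr2 and Bmp6 they cross.

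All 8 SMADs were tested and none had an unadjusted p under 0.05. Of the SMADs that BMP receptors phosphorylate, *Smad1* and *Smad5* had 25.3 and 12.2 CPM per kb and log2 fold changes of 0.08 ± 0.19 and 0.01 ± 0.16 (SE). *Smad1* had 177, 152 and 132 CPM in wt libraries and 175, 128 and 188 CPM in those labelled flt3L-/-. *Smad9* was rare, with 0.389, 0.737 and 0.857 CPM in wt libraries and 1.35, 1.02 and 1.39 CPM in those labelled flt3L-/-. Its groups did not overlap, at a fold change of 1.95 and an unadjusted p of 0.128, and its counts were 10 to 23 reads in wt and 24 to 37 reads in the libraries labelled flt3L-/-. *Smad2* and *Smad3*, the SMADs of TGF-beta and activin, had 3.03 and 2.83 CPM per kb. *Smad3* was lower in each pair, by 0.22, 0.13 and 1.05 on the log2 scale, while *Smad2* differed by -0.17, -0.46 and 0.78. *Smad4*, the partner of both branches, had a log2 fold change of 0.23 ± 0.19 (SE).

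The inhibitory SMADs, which BMP and TGF-beta signals themselves induce, varied between libraries more than between groups. *Smad6* had 70.4, 71.8 and 27.6 CPM in wt libraries and 107, 32.6 and 34.4 CPM in those labelled flt3L-/-. *Smad7* had 32.6, 40.2 and 15.98 CPM in wt libraries and 43.6, 19.8 and 16.3 CPM in those labelled flt3L-/-. For both genes the same 3 libraries, both of pair 1 and the wt library of pair 2, were the high ones. Their log2 fold changes of -0.06 and -0.19 became 0.44 and 0.21 without pair 2.

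Id proteins, which bind basic helix-loop-helix factors and keep them from DNA, include the best known BMP target genes. *Id3* and *Id1* were the most abundant members per kb, with 1224 and 790 CPM per kb. *Id3* had 1863, 1823 and 2241 CPM in wt libraries and 2271, 2303 and 2651 CPM in those labelled flt3L-/-. *Id1* had 755, 787 and 933 CPM in wt libraries and 950, 936 and 1139 CPM in those labelled flt3L-/-. For both, the 3 libraries labelled flt3L-/- lay above the 3 wt libraries, which was so for 3 of the 47 members (6.38%) and 3.53% of all genes. The pairs differed by 0.29, 0.34 and 0.24 for *Id3* and by 0.33, 0.25 and 0.29 for *Id1*, and the log2 fold changes were 0.29 ± 0.15 and 0.29 ± 0.14 (SE), with unadjusted p-values of 0.120 and 0.0934. *Id2* had 351, 284 and 319 CPM in wt libraries and 263, 334 and 290 CPM in those labelled flt3L-/- and went both ways, and *Id4* was rare with 2.18 to 13.0 CPM over all libraries.

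Levels of many of the lower genes differed between sorting dates. In edgeR's quasi-likelihood test of the date terms, 12 of the 47 members (25.5%) had an unadjusted p under 0.05 against 8.28% of all genes, and 0 had an adjusted p under 0.05 against 0.0% of all genes. DESeq2's likelihood ratio test of the same terms called 8 of the 47 members (17.0%) against 2.99% of all genes at an adjusted p under 0.05. These were *Bmp1*, *Bmpr1a*, *Ltbp1* to *Ltbp4*, *Tgfb2* and *Tgfbr1*. The unadjusted edgeR p for date was 0.000257 for *Ltbp3* and 0.00166 for *Bmpr1a*, whose mean level over both groups differed between dates by up to 4.54 and 4.74 times. Of the 12 members, 11 had their lowest mean level on the date of pair 3. The 12 became 5, 19 and 6 without pairs 1, 2 and 3, where the share of all genes was 5.67%, 14.4% and 5.25%. Without pair 2, edgeR called 2 members for date, *Bmp1* and *Ltbp3*, among 112 genes or 0.854% of all. Of the 6 members that were lower by genotype at an unadjusted p under 0.05, 5 were among these 12. Both tests used the same fit and its residual spread, and the matching share over all genes was not computed. The overlap is therefore not read as a trait of these members. Since each date held 1 library of each group, the date and other differences of handling on that day cannot be told apart.

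The wt library of pair 1 held the highest value of 19 of the 47 members, and the library labelled flt3L-/- of pair 3 held the lowest value of 22. These are counts of members and not percentages. Over all genes tested these libraries held the highest value of 19.3% and the lowest value of 25.2% of the genes. In the other direction, the first held the lowest value of 7 members and of 23.3% of all genes. The second held the highest value of 8 members and of 27.4% of all genes. The summed level of the 10 fibroblast markers was 44505, 29789 and 22321 CPM in wt libraries and 22071, 33675 and 10257 CPM in those labelled flt3L-/-. Its highest and lowest values were in these same libraries. All 10 had a lower mean in the libraries labelled flt3L-/-, and their median log2 fold change was -0.65. Lower in each pair were 4 of the 10, beside 11.5% of all genes tested. In pair 2 the summed level, to which abundant markers contribute most, was higher in the library labelled flt3L-/-. *Ltbp3*, *Ltbp1*, *Ltbp2* and *Bmpr1a* were lower in that library by 0.46, 0.52, 0.50 and 0.78 on the log2 scale. They are given here as members that were lower in each pair, so their direction in pair 2 was fixed by that choice. The 10 endothelial markers summed to 8892, 11642 and 11851 CPM in wt libraries and to 12154, 9602 and 14220 CPM in those labelled flt3L-/-, with a median log2 fold change of 0.23. The 10 markers of pericytes and smooth muscle cells summed to 927, 467 and 514 CPM in wt libraries and to 591, 526 and 298 CPM in those labelled flt3L-/-. In pair 2 this sum was higher in the library labelled flt3L-/-. Over the 3 libraries of each group, 9 of the markers had a lower mean under that label. In each pair, 3 of the 10 were lower and 1 was higher, beside 11.5% and 14.2% of all genes tested. The 10 leukocyte markers summed to 174, 929 and 2511 CPM in wt libraries and to 449, 1301 and 186 CPM in those labelled flt3L-/-. This sum was higher there in pairs 1 and 2 and lower in pair 3. By mean, 9 of the markers were lower there, with a median log2 fold change of -0.35. The 10 cardiomyocyte markers summed to 153 to 232 CPM in wt and 235 to 272 CPM in the others, and the median was 0.36. Higher in each pair were 6 of the 10, beside 14.2% of all genes tested. No marker of these 5 lists was at 0 in all libraries. The part of these markers in the results for the members was not tested.

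**Figure D4:**
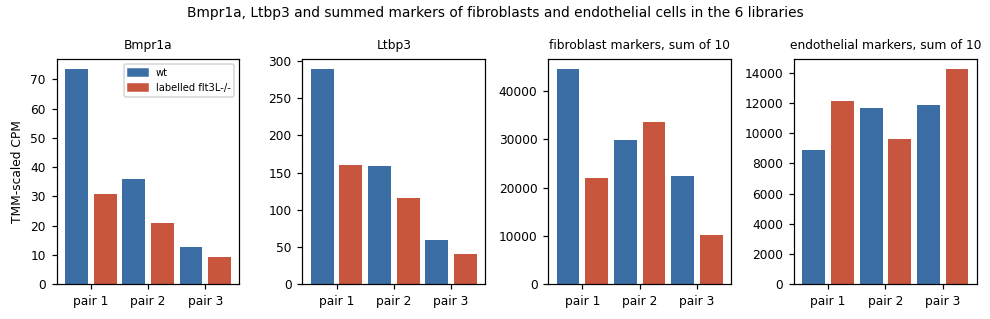
TMM-scaled CPM of Bmpr1a and Ltbp3 and the summed CPM of 10 fibroblast and of 10 endothelial marker genes, with 1 bar per library, bars from 0 and libraries of the same sorting date side by side. The fibroblast sum, to which abundant markers contribute most, is lower in the library labelled flt3L-/- in pairs 1 and 3 and higher in pair 2. Bmpr1a and Ltbp3 are lower in each pair.

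Other genes of the pathway, 88 genes in 7 lists, were read in the same fit. Of these, 77 were tested, 0 had an adjusted p under 0.05, and 8 were lower and 1 was higher at an unadjusted p under 0.05, or 9 in all, beside 3.59% of all genes. These became 4, 18 and 2 without pairs 1, 2 and 3 and 1 without the sorting date, while the share of all genes became 2.57%, 7.47%, 1.87% and 1.94%. DESeq2 called 1 of the 77, *Fbn1*, against 0.156% of all genes. The median log2 fold change was -0.16.

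Extracellular antagonists and modulators had 17 of 23 genes tested and a median log2 fold change of -0.25. *Chrdl1*, a chordin-like BMP antagonist, had 7.04, 4.58 and 4.51 CPM in wt libraries and 2.59, 3.06 and 1.82 CPM in those labelled flt3L-/-, so that the groups did not overlap. Its log2 fold change was -1.11 ± 0.32 (SE) with an unadjusted p of 0.0187. The most abundant was *Fstl1*, a secreted follistatin-like glycoprotein, with a log2 fold change of -0.50 ± 0.19 (SE). Genes that hold or activate latent TGF-beta were 12 of 13 tested, with a median of -0.41 and 3 lower at an unadjusted p under 0.05. These were *Itgav*, the integrin subunit that releases TGF-beta and a gene that the study also selected on these libraries (log2 fold change -0.58), its partner *Itgb8* (-1.40) and *Fbn1*, the fibrillin that anchors latent complexes (-1.10), which shares 20.1% of its exon bases with Gm9913. *Fbn1* had 354, 351 and 120 CPM in wt libraries and 250, 162 and 37.0 CPM in those labelled flt3L-/-, lower in each pair. *Thbs1*, an activator of latent TGF-beta and the most abundant of the list, had 4503, 1001 and 1898 CPM in wt libraries and 3425, 985 and 484 CPM in those labelled flt3L-/-.

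Known targets of TGF-beta had 12 of 12 genes tested, a median of -0.41 and 3 lower genes, *Col1a2* (-1.01), *Col1a1* (-1.18) and *Postn* (-0.94), which encode matrix proteins of fibroblasts. The collagen genes also stand among the fibroblast markers, and 2 further genes of the list among those of smooth muscle. *Ccn2*, the most abundant target, had a log2 fold change of -0.43 ± 0.26 (SE). Genes linked to ALK1 in endothelium had 8 of 8 genes tested, a median of 0.19 and 1 higher gene, *Hey1*, a transcriptional repressor that Notch also induces. *Hey1* had 160, 163 and 207 CPM in wt libraries and 213, 180 and 309 CPM in those labelled flt3L-/-, with a log2 fold change of 0.38 ± 0.14 (SE) and an unadjusted p of 0.0481. *Dll4*, a Notch ligand, had 0.49 ± 0.23 (SE). Regulators of SMAD turnover and activity had 20 of 20 genes tested and a median of -0.10, kinases and adaptors of the branch without SMADs had 6 of 6 and a median of -0.05, and neither list had a gene with an unadjusted p under 0.05. In these lists *Ldlrad4* and *Limk1* had the smallest p-values, with log2 fold changes of -0.35 and -0.22, although *Ldlrad4* shares 52.1% of its exon bases with *Fam210a*, and *Tob1* and *Map3k7* were the most abundant, with -0.05 and -0.14. Of 6 other ligands and receptors, *Nodal* and *Lefty1* were tested, at 1.24 to 3.24 and 0.712 to 3.78 CPM over all libraries, with log2 fold changes of -0.60 and -0.63.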

How the data were processed

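RNA of sorted cardiac SP cells was sequenced as unstranded single-end reads after SMART-Seq v4 amplification. According to the methods and the labels, the authors mapped reads with STAR 2.5.2a on mm10, placed equally good hits at random and counted reads that start in an exon. The deposited values are these counts per gene, without normalization. Symbols, biotypes, exon lengths and positions came from GENCODE M21 on GRCm38, which held 50376 of the 50600 genes. Shared exon bases ignore strand, because the libraries are unstranded.

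edgeR 4.0.16 on R 4.3.3 tested the protein-coding genes that passed 1 CPM in 2 or more libraries, with TMM factors, estimateDisp and glmQLFit with glmQLFTest (legacy = TRUE). The sorting date was a covariate, as in the study, and p-values were adjusted over all genes tested (Benjamini-Hochberg). Standard errors come from the log2 fold change and F, and pair differences used a prior count of 2. The labels give the sorting date, which pairs the libraries, and the correlation of same-date deviations from the group means was 0.180, 0.104 and 0.116. The fit had 2 residual degrees of freedom and a prior of 2.79, the weight with which a gene's spread is drawn toward that of other genes. P-values of this fit are set against the spread left after date and genotype, moderated in this way. A gene's own part of it is how far the difference between same-date pools of 4 mice varied from date to date. The fit was tested on simulated data with a smaller spread than that of these libraries. Named genes are *Bmpr1a*, *Ltbp3*, *Eng*, all SMADs, and in each role the 2 most abundant per kb and the one with the smallest p-value, and in each further list the most abundant and the one with the smallest p-value. The members and lists were chosen with earlier results of these data known. DESeq2 1.42.0 was an alternative. Promoters were taken from a RefSeq table of GRCm38.p6. The values of 1 member are not reported here.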

Additional observations from a re-analysis of the deposited data

How the results depend on the processing

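Under the 13 alternatives, 0 members had an adjusted p under 0.05 for genotype, and over all of them the adjusted p of each named member was at least 0.312. The 6 members lower at an unadjusted p under 0.05 numbered 0 with no replicate block, that is without pairing by sorting date, and 2 to 10 when a pair was left out. Members higher by that rule numbered 2 without pair 2, *Bmp6* and *Gdf15*, and 0 to 2 over the pairs left out. Without pairing by date, 1 further pathway gene had an unadjusted p under 0.05, beside 9 with it and 2 to 18 when a pair was left out. DESeq2 called 1 pathway gene for genotype and 8 members for sorting date. Members called for sorting date were 0 to 2 when a pair was left out, and those at an unadjusted p under 0.05 were 5 to 19. The medians of the unfitted differences in pairs 1, 2 and 3 were -0.14, -0.13 and -0.12, with an SD of 0.011. That SD belongs to another measure and does not show how well the fitted median is known. The fitted median log2 fold change of the members was -0.11 with library size only, -0.062 with legacy = FALSE and -0.090 with no replicate block. It was -0.17 to -0.052 when a pair was left out. With library size only the median of all genes was -0.039, so that most of that move was common to all genes.

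Of 337 values of the 26 tested named members, 319 had the sign given in the report, and 15 of the genes changed sign nowhere. With library size only, *Smad5* was -0.030 and *Eng* -0.014, moves of the size of that common shift. *Smad5* was -0.0014 with filterByExpr, -0.0016 with more than 1 CPM in all libraries and -0.00097 with all biotypes. With no replicate block, *Smad6* was 0.035 and *Smad2* -0.022. When a pair was left out, the log2 fold change ranged from -0.13 to 0.21 for *Bmp4*, -0.13 to 0.22 for *Smad1*, -0.41 to 0.44 for *Smad6*, -0.15 to 0.10 for *Smad5*, -0.50 to 0.21 for *Smad7*, -0.32 to 0.28 for *Smad2*, -0.18 to 0.41 for *Tgfb1*, -0.21 to 0.19 for *Eng*, -0.13 to 0.084 for *Tgfbr2*, -0.23 to 0.066 for *Acvr2a* and -0.34 to 0.028 for *Bmpr2*. The cause of these moves was not tested, other than that fits without a pair hold fewer libraries. The 14 members that were not tested had too few counts for the filter of 1 CPM, and without a filter 60 members were fitted.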
